A study of Saccharomyces cerevisiae with 63 samples.

Results

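The Rim101 pH-signalling pathway of budding yeast was followed through its 7 genes RIM21, DFG16, RIM9, RIM8, RIM20, RIM13 and RIM101 during a course of meiosis. They were taken by gene name from the deposited table and are 7 of its 6088 genes, and all 7 passed the filter on low counts that left 5822 genes for testing. The transcripts of 1 pathway did not move as 1 block, though how many rose or fell at a step depended on how the libraries were scaled. In WT cells between 5 and 9 h, RIM13 rose and then fell to below its starting level, RIM9 and RIM20 fell and then rose, RIM8 rose to its highest level, and RIM101 dropped to its lowest. The difference of the ime4 mutant from WT varied over the times for all 7 genes, as for 96.3% of all genes tested. That of the pho92 mutant varied for 6 of the 7, against 90.6% of all genes tested.

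The data are poly(A) RNA sequencing counts from 63 libraries of diploid SK1 yeast, 3 libraries for each of 21 combinations of strain and time. The strains were labelled WT, ime4 mutant and pho92 mutant. The kind of allele in each mutant is not given in the labels. All 3, the WT included, carried pCUP-IME1, a construct in which a copper-inducible promoter drives IME1, the transcription factor gene that starts meiosis, so IME1 was under copper control in every group. Cells preselected for respiratory competence were moved to sporulation medium with 0.3% potassium acetate at 0 h, 50 µM copper sulfate was given at 2 h, and RNA was taken at 0, 2, 3, 5, 6, 7 and 9 h. IME4 encodes the methyltransferase that places N6-methyladenosine on meiotic mRNA, and the YTH-domain protein Pho92 binds this mark. The labels call the 3 libraries of a group biological replicates. They do not say whether a replicate number is 1 culture followed over time.

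In the Rim101 pathway, plasma membrane proteins sense a rise in external pH and pass the signal through an arrestin and the ESCRT machinery, which sorts ubiquitylated membrane proteins at endosomes, to a protease that cuts the transcription factor Rim101. Cut Rim101 is a repressor, and its best known targets are the regulatory genes NRG1 and SMP1. NRG1 encodes a repressor, so an active pathway lifts repression by Nrg1. Several RIM genes were found in screens for regulators of IME2, and loss of the pathway impairs sporulation in cells with the native IME1 promoter. Transcript counts do not measure the cutting of Rim101, and the pH of the medium was not analysed here.

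The 7 genes lie on chromosomes VII, VIII, XIII, XIV and XV, and each is 1 uninterrupted coding exon in the R64 annotation of the S288C strain. RIM21 (YNL294C) lies on chromosome XIV at 78659 to 80260 on the minus strand. DFG16 (YOR030W) lies on chromosome XV at 386825 to 388684 on the plus strand, and RIM20 (YOR275C) on the same chromosome at 839084 to 841069 on the minus strand. RIM9 (YMR063W) lies on chromosome XIII at 397077 to 397796 on the plus strand, and RIM13 (YMR154C) on the same chromosome at 565999 to 568182 on the minus strand. RIM8 (YGL045W) lies on chromosome VII at 414102 to 415730 on the plus strand. RIM101 (YHL027W) lies on chromosome VIII at 51111 to 52988 on the plus strand. None of the 7 overlaps a neighbouring annotated gene, and the gaps to the nearest genes ran from 106 to 1889 bases. The coding lengths ran from 720 bases for RIM9 to 2184 bases for RIM13.

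The 600 bases before each start codon were searched on both strands for 3 motifs: TGCCAAG, bound by Rim101; the middle sporulation element bound by Ndt80, the transcription factor of the middle meiotic programme, spelled GNCACAAAA, GNCACAAAT, GNCGCAAAA or GNCGCAAAT; and GGCGGC, the core of URS1, a site of early meiotic genes. Of 5999 promoters of the same length, 8.48% held TGCCAAG, 9.88% a middle sporulation element and 11.4% GGCGGC. Among the 7 pathway genes 1 held a match, RIM8, with TGCCAAG at 528 to 522 bases before its start codon and a middle sporulation element on the other strand at 419 to 411. The 2 best known target genes both held TGCCAAG on the other strand, NRG1 at 328 to 322 bases and SMP1 at 286 to 280 bases, and NRG1 held GGCGGC on the other strand at 373 to 368 bases. These stretches are shown because they hold every match found in these genes. They are from the RefSeq R64 sequence of S288C and not from SK1, written 5′ to 3′ on the strand of the gene, with the matches in capitals.
RIM8 (chrVII:413554-413711, plus strand): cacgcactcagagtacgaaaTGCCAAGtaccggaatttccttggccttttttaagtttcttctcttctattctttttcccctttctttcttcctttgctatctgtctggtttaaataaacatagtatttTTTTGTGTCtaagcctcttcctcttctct
NRG1 (chrIV:543671-543762, minus strand): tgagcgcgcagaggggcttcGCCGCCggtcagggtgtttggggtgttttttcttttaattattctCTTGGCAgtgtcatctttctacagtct
SMP1 (chrII:595124-595170, minus strand): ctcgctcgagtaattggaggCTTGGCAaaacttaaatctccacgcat
A match is a run of letters and not a measured site of binding.

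Library totals ran from 12826747 to 33048881 counts (median 16834032). IME4 was at 0 to 2.37 CPM in the ime4 libraries and PHO92 at 0 to 4.27 CPM in the pho92 libraries. Levels are given in CPM, the usual counts relative to library size, with the library size scaled by the trimmed mean of M-values (TMM). The choice of scaling mattered. The 100 most abundant genes held 54.29 to 58.45% of the counts in the 3 WT libraries at 7 h and 24.84 to 26.37% in the ime4 libraries at 7 h. Scaling by total counts alone moved the median log2 difference of all genes by -0.86 for WT at 6 h against 5 h, -0.67 at 7 h against 6 h and 0.98 at 9 h against 7 h. It moved the median of ime4 against WT by 1.14 at 6 h, 1.78 at 7 h and -0.15 at 9 h, and that of pho92 against WT by 0.85, 0.84 and -0.45. All differences below are therefore relative to the genes that TMM takes as its reference. A value under total counts differs from the one printed by about these shifts. Directions that turned are named beside the result or only in the closing section on the processing, which lists them all. Summed over 5 meiotic markers (SPO11, REC8, DMC1, HOP1 and ZIP1), WT held 67 to 187 CPM at 0 h. It held 1710 to 2960 at 2 h, the hour at which copper was given, and 11400 to 12200 at 3 h. A step from 0 to 2 h can thus not be placed before the rise of these markers. At 7 h WT stood at 2310 to 2320, against 8150 to 9420 in ime4 and 3750 to 6020 in pho92. Of 6 haploid or mating markers, the sum went from 65.2 to 84.2 CPM in WT at 0 h to 718 to 844 at 7 h, mostly through STE4 and STE3, and stood at 199 to 296 in ime4 at 7 h. The defining pheromone genes were low but not constant, with WT means of MFA1 of 1.51 CPM at 0 h and 22.7 at 7 h, and of MF(ALPHA)1 of 0.639 at 0 h, 8.86 at 5 h and 2.74 at 7 h. The part of either marker list in the results was not tested.

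**Figure D1:**
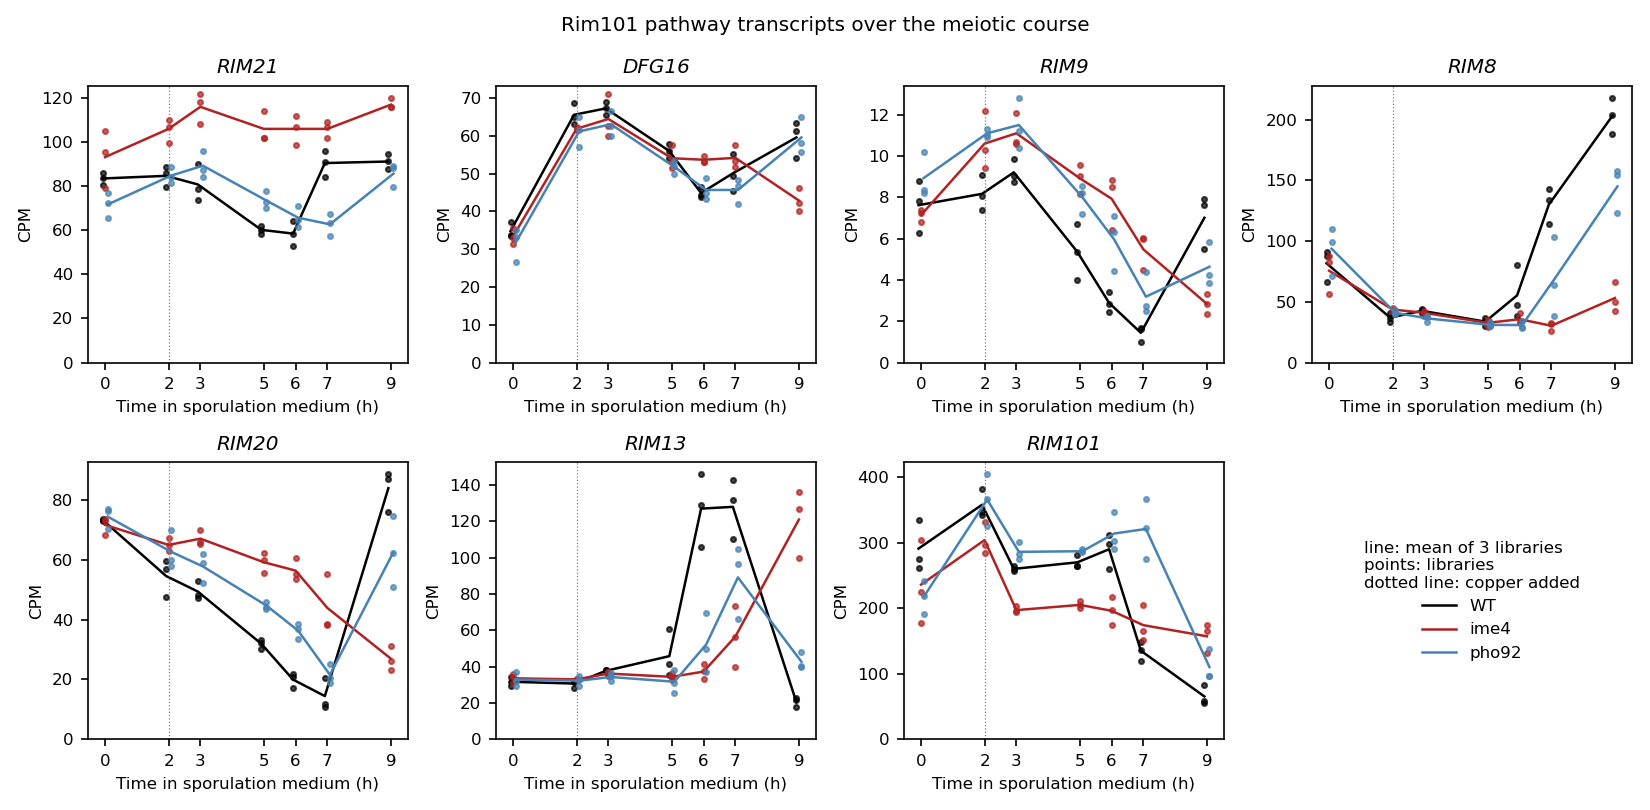
CPM on the TMM-scaled library size (y axis, from 0) against hours in sporulation medium (x axis) for the 7 pathway genes, 1 panel each, where points are single libraries, lines join the means of 3 libraries per strain and the dotted line marks the addition of copper. In WT, RIM13 stood at 127 CPM at 6 h and 20.4 at 9 h, while in ime4 it stood at 37.2 at 6 h and 121 at 9 h.

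In WT, 24 of the 42 pairs of gene and consecutive time were called at an adjusted p under 0.05, against 65.3% of such pairs over all genes, so the pathway moved no more often than the transcriptome at large. By direction, 2 rose and 3 fell from 5 to 6 h and again from 6 to 7 h, and 4 rose and 2 fell from 7 to 9 h. Under total counts these were 1 and 5, 1 and 5, and 5 and 1. Of all 5822 genes, TMM gave 1957 higher and 2450 lower, 1621 and 1864, and 2064 and 2680 at these steps. Total counts gave 1009 higher and 3929 lower, 548 and 3455, and 3182 and 1342. All 7 genes were called by the F test over the 7 WT times, as were 99.1% of all genes tested. In bulk RNA fewer cells of a type and less RNA per cell cannot be told apart, and this holds for every level below. The ratio of the highest to the lowest WT group mean was 1.56 for RIM21 and 1.93 for DFG16, and between 5.5 and 6.4 for the other 5 genes.

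RIM21 encodes the membrane protein held to be the pH sensor. Its WT libraries held 78.7, 73.6 and 90.0 CPM at 3 h, 58.5, 60.0 and 62.0 at 5 h, 64.1, 58.5 and 53.0 at 6 h, and 96.1, 84.4 and 90.9 at 7 h. The 6 libraries of 5 and 6 h all lay below the 6 libraries of 3 and 7 h. RIM21 fell by 0.42 on the log2 scale from 3 to 5 h (SE 0.09, adjusted p 0.000119). From 6 to 7 h it rose by 0.63 (SE 0.09, adjusted p 1.61e-07), but under total counts this difference was -0.03.

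DFG16 encodes a multi-spanning membrane protein that acts with Rim21. Its WT mean went from 34.8 ± 2.02 CPM at 0 h (libraries at 37.1, 33.4 and 33.9) to 65.6 ± 2.83 at 2 h (68.7, 63.1 and 65.0), the hour at which copper was given. The groups did not overlap, and the rise was 0.91 on the log2 scale (SE 0.09, adjusted p 4.4e-12). The same step gave 0.89 in ime4 (adjusted p 1.17e-11) and 0.95 in pho92 (adjusted p 1.18e-12). At 0, 2, 3 and 5 h no difference in DFG16 between strains was called, with values between -0.13 and -0.05 for the mutants against WT. In WT it then fell to 44.9 ± 1.42 CPM at 6 h and stood at 59.6 ± 4.9 at 9 h. The rise of 0.25 from 7 to 9 h (adjusted p 0.011) was lost with RLE factors (0.12) or DESeq2 (0.11) and without WT replicate 2 (0.06) or 3 (0.13), and the fall of 0.27 from 3 to 5 h without WT replicate 1 (-0.23) or 2 (-0.21).

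RIM9 encodes a small membrane protein that acts with Rim21 and Dfg16, and its counts were low. The WT libraries held 8.76, 9.03 and 9.84 CPM at 3 h, 3.98, 6.73 and 5.36 at 5 h, and 2.43, 2.83 and 3.42 at 6 h. At 7 h they held 1.64, 1.01 and 1.68 CPM, which rested on 21, 7 and 11 counts. At 9 h they held 7.94, 5.49 and 7.61 CPM, back within the range of 0 h (6.27 to 8.77) in 2 of 3 libraries. Each of these groups lay apart from the one before it. The steps were -0.78 from 3 to 5 h (SE 0.19, adjusted p 0.000474), -0.88 from 5 to 6 h (SE 0.21, adjusted p 0.000199), -0.98 from 6 to 7 h (SE 0.26, adjusted p 0.00133) and 2.25 from 7 to 9 h (SE 0.24, adjusted p 1.77e-11) on the log2 scale, and each kept its direction and call under every alternative run.

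RIM8 encodes the arrestin-like adaptor that is ubiquitylated by Rsp5 and joins the sensor to ESCRT-I. It fell early and rose late. The WT libraries held 66.6, 87.8 and 90.8 CPM at 0 h and 36.8, 33.8 and 40.4 at 2 h, a fall of 1.14 on the log2 scale (SE 0.21, adjusted p 8.18e-06). They stayed between 30.1 and 36.5 at 5 h, spread to 80.2, 47.2 and 38.4 at 6 h, and reached 143, 114 and 134 at 7 h and 218, 204 and 188 at 9 h. Every library of 7 and 9 h lay above every earlier one. The step from 5 to 6 h was 0.71 (SE 0.21, adjusted p 0.00242), but it was 0.35 and not called without WT replicate 1, and -0.20 under total counts. The step from 6 to 7 h was 1.24 (SE 0.21, adjusted p 2.42e-06) and was called under every alternative. The step from 7 to 9 h was 0.64 (SE 0.21, adjusted p 0.00426), which was 0.48 and not called without WT replicate 2, and 1.00 when only the 2 groups compared were fitted.

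RIM20 encodes the BRO1-domain scaffold that binds the ESCRT-III protein Snf7 and Rim101, and RIM13 encodes the calpain-like protease that cuts Rim101. These partners in the cutting step moved in opposite directions. RIM20 held 73.0, 73.4 and 73.7 CPM in WT at 0 h, 30.2, 32.3 and 33.3 at 5 h, 17.0, 20.9 and 21.8 at 6 h, 20.5, 11.7 and 10.8 at 7 h, and 76.0, 88.7 and 87.2 at 9 h. It declined through the course and all 3 libraries of 9 h stood above those of 0 h. The fall from 3 to 5 h was 0.63 on the log2 scale (SE 0.14, adjusted p 0.000282) and that from 5 to 6 h 0.68 (SE 0.15, adjusted p 7.86e-05). The rise from 7 to 9 h was 2.52 (SE 0.16, adjusted p 1.26e-18), a ratio of group means of 5.83. The difference from 6 to 7 h, where the libraries overlapped, was -0.44 (adjusted p 0.0132), and it was -0.92, -0.29 and -0.19 without WT replicate 1, 2 and 3, the last 2 not called. The early fall of 0.43 from 0 to 2 h (adjusted p 0.0098) was lost without WT replicate 1 (-0.30) or 2 (-0.42) and under total counts (-0.20).

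RIM13 was flat at first, with WT libraries of 29.0 to 34.4 CPM at 0 h and 36.8 to 38.2 at 3 h. They held 60.5, 41.4 and 35.2 at 5 h, 146, 129 and 106 at 6 h, 110, 143 and 132 at 7 h, and 22.4, 21.4 and 17.5 at 9 h. The 6 libraries of 6 and 7 h all lay above 100 CPM and no other WT library passed 60.5. The rise from 5 to 6 h was 1.47 on the log2 scale (SE 0.18, adjusted p 3.07e-09), and 0.61 and still called under total counts. The fall from 7 to 9 h was 2.65 (SE 0.20, adjusted p 1.82e-16), a 6.27-fold drop of the group mean to below that of 0 h. The transcript of NDT80 was high at the same times, with 5420 ± 884 CPM at 6 h and 6270 ± 229 at 7 h against 1010 ± 92.0 at 9 h. Its part in the RIM13 course was not tested.

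RIM101 encodes the zinc finger repressor itself. It held 281, 265 and 265 CPM in WT at 5 h, 260, 312 and 298 at 6 h, 119, 136 and 148 at 7 h, and 82.7, 54.9 and 57.8 at 9 h. The 3 groups from 6 to 9 h did not overlap. The fall from 6 to 7 h was 1.11 on the log2 scale (SE 0.15, adjusted p 5.64e-08) and was called under every alternative. The fall from 7 to 9 h was 1.05 (SE 0.15, adjusted p 3.51e-08), -0.69 when only the 2 groups compared were fitted, and -0.05 and not called under total counts. A fall of 0.46 from 2 to 3 h (adjusted p 0.00672) was likewise -0.10 and not called under total counts, and was lost without WT replicate 2 (-0.45).

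Per kb of gene length, RIM101 was the most abundant of the 7 in WT at 0 h, at 154 ± 20.7 CPM per kb. RIM21 (52.1 ± 1.74) and RIM8 (50.2 ± 8.1) followed with overlapping libraries, then RIM20 (37.0 ± 0.174), DFG16 (18.7 ± 1.09), RIM13 (14.5 ± 1.24) and RIM9 (10.6 ± 1.76), each of which lay apart from the next. The order had turned by 9 h. RIM8 then led at 125 ± 9.12 CPM per kb, RIM21 stood at 57.0 ± 2.2, and RIM20 (42.3 ± 3.51), RIM101 (34.5 ± 8.09) and DFG16 (32.1 ± 2.64) followed. At 9 h all RIM20 libraries lay above all DFG16 libraries, while RIM101 overlapped with both. RIM9 (9.75 ± 1.85) and RIM13 (9.36 ± 1.19) were last and overlapped too. At 7 h, RIM8 (80.0 ± 9.19), RIM101 (71.4 ± 7.72), RIM13 (58.7 ± 7.67) and RIM21 (56.5 ± 3.66) each overlapped the next, and RIM9 was lowest at 2.01 ± 0.518. The protease gene RIM13 thus stood above the scaffold gene RIM20 at 6 and 7 h and below it at 0 and 9 h in all 3 WT libraries.

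**Figure D2:**
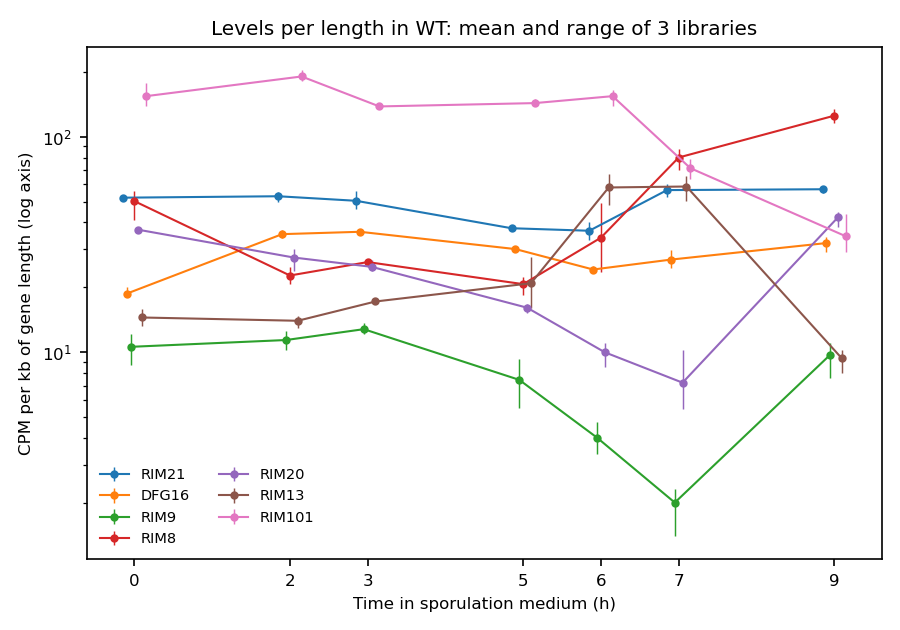
WT level of the 7 pathway genes in CPM per kb of gene length (y axis, log scale) at each time (x axis, hours), as the mean of 3 libraries with their range as bars. RIM101 leads at 0 h with 154 CPM per kb and RIM8 at 9 h with 125, and RIM9 is lowest at 7 h with 2.01.

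In ime4 against WT, 28 of 49 pairs of gene and time were called, against 47.6% of pairs over all genes. They were 17 higher and 11 lower, against 25.6% and 22% over all genes. Under total counts the split was 20 higher and 6 lower. By time, 0 of 7 genes were called at 0 h, when 0.258% of all genes were, and all 7 at 6 h and 9 h, when 78.1% and 80.2% were. At 0 h DESeq2 also called 0 of them, and 0 had an unadjusted p under 0.05 in edgeR. RIM9, RIM20 and RIM13 differed from WT in 1 direction at 6 and 7 h and in the other at 9 h, though RIM13 turned at 7 h under total counts. The test of whether the difference from WT varied over the times called all 7 genes, as it did 96.3% of all genes.

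RIM21 was higher in ime4 than in WT from 2 h on. At 5 h the ime4 libraries held 114, 102 and 102 CPM against 58.5, 60.0 and 62.0 in WT, and at 6 h 107, 112 and 98.7 against 64.1, 58.5 and 53.0. The dip of WT at these times had no counterpart in ime4, whose 3 libraries stayed at or above 98.7 CPM from 2 h to 9 h. The differences were 0.52 at 3 h (SE 0.09, adjusted p 1.64e-05), 0.82 at 5 h (SE 0.09, adjusted p 3.63e-10) and 0.86 at 6 h (SE 0.09, adjusted p 1.59e-11) on the log2 scale, called under every alternative. The smaller ones were 0.32 at 2 h, 0.23 at 7 h and 0.36 at 9 h. That at 2 h was lost without WT replicate 2 (0.28) or ime4 replicate 2 (0.30), that at 7 h with RLE factors or DESeq2 (0.05 each) and without WT replicate 2 (0.17) or 3 (0.20) or ime4 replicate 1 (0.20), and that at 9 h under total counts (0.20) and when only the 2 groups compared were fitted (0.07).

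DFG16 differed little between these strains. At 9 h its ime4 libraries held 46.2, 42.3 and 40.1 CPM against 54.1, 63.4 and 61.3 in WT, which did not overlap. The difference was -0.47 on the log2 scale (SE 0.09, adjusted p 6.42e-06), and -0.31 and still called without WT replicate 2. A difference of 0.26 at 6 h (adjusted p 0.0086) was lost with RLE factors (0.15) and without ime4 replicate 2 (0.20).

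RIM9 in ime4 held 8.49, 8.86 and 6.43 CPM at 6 h against 2.43, 2.83 and 3.42 in WT, and 6.01, 5.96 and 4.48 at 7 h against 1.64, 1.01 and 1.68. At 9 h it held 2.84, 3.33 and 2.34 against 7.94, 5.49 and 7.61. The strains did not overlap at any of these times and the order turned between 7 and 9 h. The log2 differences were 1.45 at 6 h (SE 0.20, adjusted p 1.82e-08), 1.89 at 7 h (SE 0.24, adjusted p 1.39e-09) and -1.29 at 9 h (SE 0.21, adjusted p 4.92e-07).

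RIM20 in ime4 held 53.5, 60.6 and 55.2 CPM at 6 h against 17.0, 20.9 and 21.8 in WT. At 9 h it held 23.1, 31.3 and 26.3 against 76.0, 88.7 and 87.2. The ime4 course declined from 71.7 ± 2.93 CPM at 0 h to its lowest mean at 9 h, the time at which WT was highest. The log2 differences were 0.89 at 5 h (adjusted p 1.35e-06), 1.50 at 6 h (SE 0.15, adjusted p 2.03e-12), 1.58 at 7 h (SE 0.15, adjusted p 8.18e-13) and -1.64 at 9 h (SE 0.15, adjusted p 9.95e-14), all 4 called under every alternative. The difference of 0.44 at 3 h (adjusted p 0.0158) was lost without WT replicate 2 (0.43) or ime4 replicate 2 (0.41). CAF20, a translation regulator gene 263 bases from RIM20 on the other strand, showed a like late pattern, at 351 ± 18.6 CPM in WT and 12.6 in ime4 at 9 h. Whether the counting used strand is not given in the sources used here, but the genes do not overlap.

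RIM13 in ime4 held 37.4, 33.2 and 41.2 CPM at 6 h against 146, 129 and 106 in WT, and 56.1, 40.0 and 73.4 at 7 h against 110, 143 and 132. At 9 h it held 136, 99.6 and 127 against 22.4, 21.4 and 17.5. The ime4 level at 9 h was near the WT level at 6 h, a comparison of group means at different times that was not tested. The log2 differences were -1.77 at 6 h (SE 0.19, adjusted p 1.08e-11), -1.18 at 7 h (SE 0.18, adjusted p 1.33e-07), which turned to 0.57 under total counts, and 2.56 at 9 h (SE 0.20, adjusted p 4.5e-16). NDT80 in ime4 stood at 432 ± 156 CPM at 6 h and 3270 ± 608 at 9 h, and its part was not tested.

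RIM8 was far below WT in ime4 at 7 and 9 h. The ime4 libraries held 26.3, 31.8 and 32.7 CPM at 7 h against 143, 114 and 134 in WT, and 50.1, 42.4 and 66.7 at 9 h against 218, 204 and 188. All ime4 libraries of both times lay below all WT libraries. The log2 differences were -2.11 at 7 h (SE 0.22, adjusted p 3.16e-12), which was -0.34 under total counts, and -1.94 at 9 h (SE 0.21, adjusted p 2.77e-11), both called under every alternative. At 6 h the libraries overlapped. The difference there was -0.63 (SE 0.21, adjusted p 0.00636), which was -0.27 and not called without WT replicate 1 and turned to 0.57 under total counts. Within ime4 RIM8 rose from 7 to 9 h by 0.81 on the log2 scale (SE 0.21, adjusted p 0.000687), which was -0.17 under total counts.

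RIM101 in ime4 fell less at the end. The libraries held 197, 217 and 175 CPM at 6 h against 260, 312 and 298 in WT, and 165, 175 and 131 at 9 h against 82.7, 54.9 and 57.8. The difference at 9 h was 1.27 on the log2 scale (SE 0.15, adjusted p 3.84e-10) and was called under every alternative. That at 6 h was -0.56 (adjusted p 0.000893) and turned to 0.58 under total counts. The differences of -0.40 at 3 h (adjusted p 0.0398) and -0.40 at 5 h (adjusted p 0.0263) were not called under total counts (-0.27 and -0.09), at 3 h also without any 1 of the 3 WT or 3 ime4 replicates (-0.36 to -0.42), and at 5 h without any of these except ime4 replicate 2 (-0.36 to -0.42). The difference of 0.37 at 7 h (adjusted p 0.0237) was lost with RLE factors or DESeq2 (0.19 each) and without WT replicate 1 (0.28) or 2 (0.37) or ime4 replicate 2 (0.31).

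**Figure D3:**
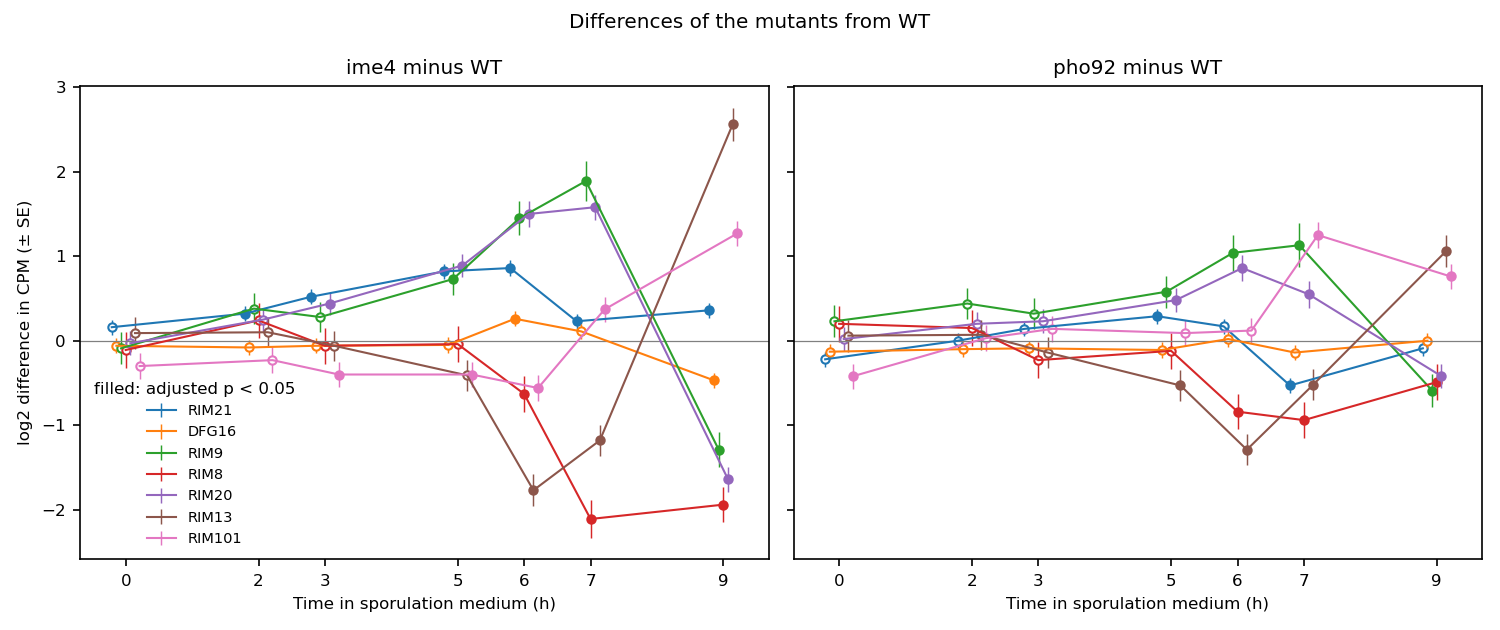
Log2 difference of ime4 from WT (left) and of pho92 from WT (right) for the 7 pathway genes (y axis) at each time (x axis, hours), with the SE of the fit as bars and called differences as filled points. In ime4, RIM20 goes from 1.58 at 7 h to -1.64 at 9 h and RIM13 from -1.18 to 2.56, and the same genes go from 0.55 to -0.42 and from -0.52 to 1.06 in pho92.

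In pho92 against WT, 20 of 49 pairs were called, against 39% of pairs over all genes. They were 10 higher and 10 lower, against 21.7% and 17.3%, and under total counts 14 higher and 6 lower. The test of a difference that varies over time called 6 of the 7 genes and 90.6% of all genes. DFG16 was the exception, with an adjusted p of 0.79 in that test and no call at any single time under TMM. Under total counts DFG16 was called higher in pho92 at 7 h and lower at 9 h. The authors' own comparisons, given below, called it lower at 7 h. At 2 and 3 h no pathway gene was called, with 0 of 7 against 12.4% and 17.9% of all genes. DESeq2 gave the same 2 counts of 0, and at an unadjusted p under 0.05 in edgeR there was 1 gene at 2 h, RIM9 at 0.44, and 0 at 3 h.

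RIM9 and RIM20 again stood above WT at 6 and 7 h and below it at 9 h. RIM9 held 4.43, 6.34 and 7.11 CPM at 6 h and 2.48, 2.72 and 4.39 at 7 h in pho92, each library above all 3 of WT at that time. The differences were 1.04 at 6 h (SE 0.21, adjusted p 2.25e-05) and 1.13 at 7 h (SE 0.26, adjusted p 0.000221). The difference of 0.58 at 5 h (adjusted p 0.0142) was lost without WT replicate 1 (0.39) or 3 (0.55), and that of -0.59 at 9 h (adjusted p 0.0128), where libraries overlapped, without WT replicate 1 (-0.43) or 3 (-0.49) or pho92 replicate 2 (-0.52).

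RIM20 held 33.4, 37.0 and 38.5 CPM at 6 h in pho92 and did not overlap with WT, a difference of 0.86 (SE 0.15, adjusted p 2.4e-06). At 7 h it held 18.8, 20.5 and 25.2 CPM, which overlapped with WT. The difference there was 0.55 (SE 0.16, adjusted p 0.00202) and was 0.93 without WT replicate 1. Its call was kept in 12 of 15 alternatives and lost in 3. At 9 h the libraries held 74.6, 62.3 and 50.9 CPM, all below those of WT. The difference of -0.42 (adjusted p 0.0107) was lost without WT replicate 2 (-0.33) or 3 (-0.36) or pho92 replicate 3 (-0.33).

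RIM13 held 69.6, 49.6 and 37.1 CPM in pho92 at 6 h, 96.4, 105 and 66.3 at 7 h, and 40.1, 39.8 and 47.9 at 9 h. The pho92 libraries lay below all WT libraries at 6 and 7 h and above them at 9 h. The differences were -1.29 at 6 h (adjusted p 8.31e-08) and 1.06 at 9 h (SE 0.19, adjusted p 8.39e-06). That of -0.52 at 7 h (adjusted p 0.0114) turned to 0.26 under total counts and was lost without WT replicate 2 (-0.44) or pho92 replicate 3 (-0.35). At 5 h the difference of -0.53 (adjusted p 0.0208) rested on overlapping libraries and was -0.29 without WT replicate 1, -0.52 without pho92 replicate 2 and -0.39 without pho92 replicate 3, not called in any of these.

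RIM8 rose late in pho92 too, but from a lower level. At 6 h its libraries held 34.1, 28.8 and 29.6 CPM, below all 3 of WT, at 7 h 103, 63.5 and 38.1, and at 9 h 158, 154 and 123. The spread at 7 h was wide, and NDT80 in the same pho92 group was 3370 ± 923 CPM. The difference from WT was -0.84 at 6 h (adjusted p 0.000544), which was -0.46 and not called without WT replicate 1 and turned to 0.05 under total counts. At 7 h it was -0.94 (adjusted p 0.00015), and -0.20 and not called under total counts. At 9 h it was -0.49 (adjusted p 0.0398), and it was lost without WT replicate 1 (-0.38), 2 (-0.44) or 3 (-0.50) and without pho92 replicate 2 (-0.53) or 3 (-0.42).

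RIM101 stayed high in pho92 for longer than in WT. Its libraries held 347, 303 and 291 CPM at 6 h, 275, 366 and 322 at 7 h, and 97.0, 96.7 and 137 at 9 h. At 7 h all 3 were above the highest WT library of 148, and at 9 h above the highest of 82.7. The difference was 1.25 on the log2 scale at 7 h (SE 0.15, adjusted p 3.59e-09), called under every alternative, and 0.76 at 9 h (adjusted p 4.69e-05), which was 0.29 and not called under total counts. At 0 h the difference was -0.42 (adjusted p 0.0443), and it was lost under 11 of the alternatives, among them leaving out WT replicate 2 (-0.28) or 3 (-0.42) or pho92 replicate 1 (-0.41) or 3 (-0.37).

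RIM21 differed from WT in pho92 at 2 times. At 7 h the pho92 libraries held 67.6, 57.2 and 63.3 CPM against 96.1, 84.4 and 90.9, and at 9 h they held 88.4, 89.0 and 79.7. Under TMM, WT was thus back from its dip at 7 h and pho92 only at 9 h. The WT rise from 6 to 7 h did not keep its direction under total counts. The difference at 7 h was -0.53 (adjusted p 3.48e-06) and turned to 0.31 under total counts. That of 0.29 at 5 h (adjusted p 0.0112) was lost without WT replicate 1 (0.26) or 2 (0.27) or pho92 replicate 3 (0.25).

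The mutants also differed from each other. In ime4 against pho92, 26 of 49 pairs were called, against 30.9% of all pairs. They were 15 higher and 11 lower, against 15.1% and 15.8%, but 13 higher and 2 lower under total counts. RIM21 was higher in ime4 at all 7 times, by 0.32 to 0.76 on the log2 scale, and the calls at 5, 6 and 7 h held under every alternative. Those at 0, 2, 3 and 9 h were lost in 6, 7, 3 and 1 of 15 alternatives. At 0, 2 and 3 h total counts were among these (0.40, 0.35 and 0.41). RIM20 was higher in ime4 at 6 h by 0.64 (adjusted p 0.000377) and at 7 h by 1.03 (adjusted p 6.47e-08), and lower at 9 h by -1.21 (adjusted p 1.03e-09). RIM9 was higher in ime4 at 7 h by 0.76 (adjusted p 0.000994) and lower at 9 h by -0.70 (adjusted p 0.00527), the latter lost without ime4 replicate 3 (-0.55) or pho92 replicate 1 (-0.45). RIM8 was lower in ime4 at 9 h, by -1.45 (adjusted p 6.25e-08). At 7 h RIM8 differed by -1.17 (adjusted p 4.8e-06), which was -0.78 without pho92 replicate 1 and -0.14 and not called under total counts. RIM13 was higher in ime4 at 9 h by 1.50 (adjusted p 1.69e-09), and at 7 h, where libraries overlapped, its difference of -0.66 turned to 0.31 under total counts and was lost without ime4 replicate 2 (-0.40). RIM101 was called lower in ime4 at 3, 5, 6 and 7 h, but only 5 and 6 of 15 alternatives kept the calls at 3 and 5 h. At 7 h it was lower by -0.89 (adjusted p 1.98e-06), which was 0.04 under total counts. At 9 h RIM101 was called higher in ime4, at 157 ± 23.4 against 110 ± 23.2 CPM with overlapping libraries. That call was kept in 13 of 15 alternatives.

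Averaged over 3 to 9 h, 4 of 7 genes differed between ime4 and WT, against 76.1% of all genes, with 3 higher and 1 lower (39.3% and 36.8% of all genes). Under total counts it was 6 higher and 1 lower, against 4378 and 723 of all genes tested. RIM21 (0.56, SE 0.04, adjusted p 6.68e-17), RIM20 (0.56, SE 0.07, adjusted p 1.76e-10) and RIM9 (0.61, SE 0.09, adjusted p 7.89e-08) were higher and RIM8 lower (-0.96, SE 0.09, adjusted p 8.75e-13). In pho92, 5 of 7 differed, against 60.3% of all genes, with 3 higher and 2 lower (33.9% and 26.4% of all genes). Under total counts 5 were higher and 1 lower, against 3755 and 556 of all genes tested. RIM101 (0.47, SE 0.07, adjusted p 8.46e-08), RIM9 (0.50, SE 0.09, adjusted p 1.36e-05) and RIM20 (0.34, SE 0.07, adjusted p 1.91e-05) were higher and RIM8 was lower (-0.52, SE 0.09, adjusted p 5.49e-06). RIM13 had -0.29 (SE 0.08, adjusted p 0.00269), which was 0.01 under total counts. Both comparisons use the same WT libraries. RIM13 and RIM101 in ime4, called with opposite signs at different times, averaged -0.17 and 0.06 and were not called. Under total counts both were called higher in ime4.

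Within the mutants, 12 of 42 steps were called in ime4 and 21 of 42 in pho92, against 36.8% and 48.3% of steps over all genes. In pho92 the split was 11 higher and 10 lower (24.2% and 24.1% over all genes), and 10 and 14 under total counts. Of all genes tested, total counts gave 2286 higher and 1022 lower at the pho92 step to 2 h, 2657 and 855 to 3 h, and 501 and 1320 to 5 h. They gave 575 and 536 at the step to 6 h, 787 and 3804 to 7 h, and 1049 and 2710 to 9 h. The F test over the 7 times called all 7 genes in each mutant, as it did 97.8% of all genes in ime4 and 98.6% in pho92. From 5 to 6 h, the step at which 5 of the 7 genes moved in WT (75.7% of all genes), edgeR called 0 of 7 in ime4 and 1 of 7 in pho92, RIM13 at 0.72, against 0% and 17.4% of all genes. In ime4 0 of the 7 had an unadjusted p under 0.05 and DESeq2 called 0, and over all genes 337 had such a p and DESeq2 called 35. From 7 to 9 h its RIM13 rose by 1.09 (0.14 and not called under total counts) and its RIM8 by 0.81 (-0.17 under total counts), while RIM9, RIM20 and DFG16 fell by 0.93, 0.70 and 0.34 on the log2 scale, the DFG16 call being lost with the compared libraries only (-0.26). In pho92 over the same step RIM13 fell by 1.06, RIM20 rose by 1.54 and RIM101 fell by 1.54, the directions seen in WT.

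The ESCRT genes, whose products carry the signal between Rim8 and Rim20, were read from a list of 8 that the pathway is known to need (ESCRT-I, ESCRT-II, VPS20 and SNF7) and 11 others. At 7 h in ime4 against WT, 4 of the 8 were higher and 3 lower, with a median log2 difference of 0.31 against 0.20 over all genes, of which 82.4% were called. Under total counts 7 were higher and 0 lower, against 4490 and 713 of all genes tested. Of the 11 others 7 were higher and 3 lower (median 0.74), and 9 and 1 under total counts. VPS24, an ESCRT-III gene, held 346, 344 and 328 CPM in WT at 7 h and 64.3, 69.3 and 74.7 in ime4, without overlap, a difference of -2.29 (SE 0.14, adjusted p 2.02e-18), or -0.52 under total counts. DOA4, which encodes the ubiquitin hydrolase that acts before cargo is enclosed, held 17.8, 9.28 and 9.91 CPM in WT and 80.1, 97.0 and 89.5 in ime4, a difference of 2.81 (SE 0.18, adjusted p 2.01e-18), or 4.6 under total counts. The genes of 1 machinery thus differed in both directions. SNF8, an ESCRT-II gene, held 89.8, 85.1 and 92.1 CPM in WT and 39.6, 37.9 and 49.0 in ime4, a difference of -1.08 (adjusted p 1.97e-13) that turned to 0.69 under total counts.

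In pho92 against WT at 7 h VPS24 was at -0.99 (adjusted p 6.34e-08), DOA4 at 1.19 (adjusted p 1.58e-07), and SNF8 at -0.81 (adjusted p 4.5e-09), the last 0.02 and not called under total counts. There 4 of the 8 needed ESCRT genes were higher and 3 lower, and 7 and 1 of the 11 others, against 62.8% of all genes called. Under total counts these were 6 and 0, and 10 and 1, against 3908 higher and 416 lower of all genes tested. Both mutant comparisons share the WT libraries.

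Of 3 genes whose products modify Rim8, the ubiquitin ligase gene RSP5 and the casein kinase genes YCK1 and YCK2, 2 were higher and 0 lower in WT at 6 h against 5 h, when 75.7% of all genes were called, and 1 higher and 2 lower under total counts. YCK2 held 557, 202 and 135 CPM at 5 h and 3170, 2660 and 2070 at 6 h in WT, a rise of 3.14 (SE 0.38, adjusted p 1.32e-09). In ime4 at 6 h it was at 83.0 ± 6.4 CPM, a difference from WT of -4.99 (SE 0.41, adjusted p 1.28e-14). At 9 h it was higher in ime4, at 1660 ± 432 against 560 ± 19.4 CPM, by 1.57 (adjusted p 0.000119). YCK2 and RIM13 thus shared the turn between 6 and 9 h in ime4.

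**Figure D4:**
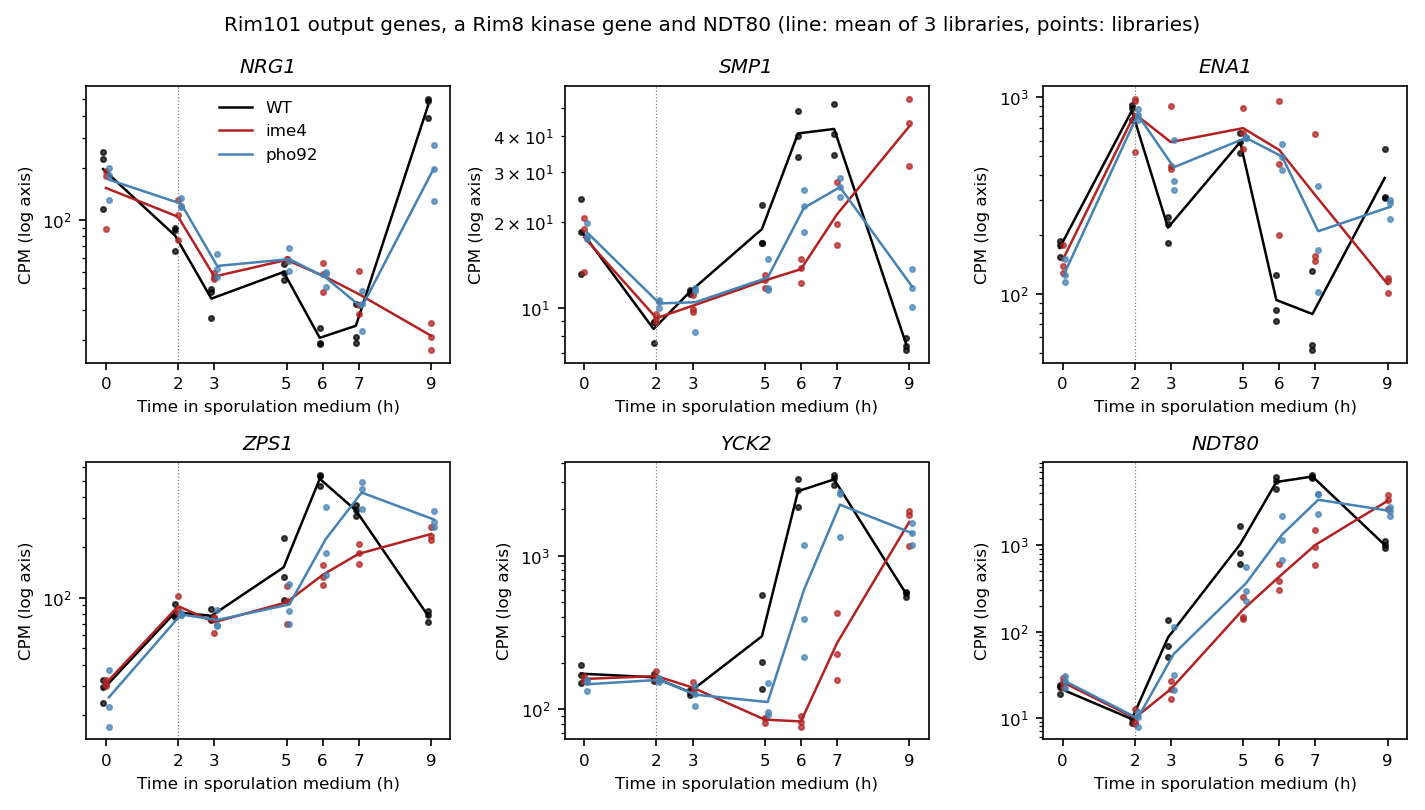
CPM on the TMM-scaled library size (y axis, log scale) against hours in sporulation medium (x axis) for 4 genes known to act downstream of Rim101, for YCK2 and for NDT80, with single libraries as points and lines joining the means of 3 libraries per strain. NRG1 in WT goes from 20.6 CPM at 6 h to 462 at 9 h and stands at 21.2 in ime4 at 9 h.

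Genes downstream of Rim101 were read from a list of 7, of which 5 were tested (NRG1, SMP1, ENA1, ZPS1 and NRG2). ENA2 and ENA5 were not analysed here, and reads of the near-identical ENA copies may share the count given for ENA1. From 5 to 6 h in WT 3 of the 5 rose and 2 fell, when 75.7% of all genes were called, and from 7 to 9 h again 3 rose and 2 fell, when 81.5% of all genes were called. Under total counts the first of these was 1 and 2 and the second was the same. In ime4 against WT at 9 h 2 were higher and 3 lower, when 80.2% of all genes were called, with a median of -1.79 against 0.31 over all genes. The list did not move as 1 group.

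NRG1 and SMP1, the 2 regulatory genes that Rim101 itself represses, took opposite courses. NRG1 held 19.0, 19.2 and 23.5 CPM in WT at 6 h and 392, 506 and 490 at 9 h, while in ime4 at 9 h it held 20.8, 25.2 and 17.5. Its WT rise from 7 to 9 h was 4.24 on the log2 scale (SE 0.30, adjusted p 2.66e-17) and its difference between ime4 and WT at 9 h was -4.44 (SE 0.30, adjusted p 6.23e-18). In pho92 at 9 h it held 271, 197 and 129 CPM, lower than in WT by -1.22 (adjusted p 9.59e-05). SMP1 held 48.9, 40.0 and 33.7 CPM in WT at 6 h and 7.45 ± 0.36 at 9 h, while in ime4 at 9 h it held 54.0, 31.5 and 44.2. Its WT fall from 7 to 9 h was 2.5 (adjusted p 3.54e-15), and it was higher in ime4 at 9 h by 2.53 (adjusted p 2.09e-15). At 9 h in WT, when RIM101 was lowest, NRG1 was thus high and SMP1 low. At 6 h SMP1 was lower than in WT by -1.58 in ime4 (adjusted p 3.81e-10, and -0.4 under total counts) and by -0.87 in pho92 (adjusted p 7.69e-05), the latter -0.02 and not called under total counts.

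ENA1, the sodium ATPase gene that Nrg1 represses, held 171 ± 16.7 CPM in WT at 0 h and 766, 912 and 886 at 2 h. The rise was 2.32 (SE 0.43, adjusted p 1.1e-05), and NRG1 fell by 1.29 over the same step (adjusted p 3.66e-05). At 6 h ENA1 held 82.3, 72.8 and 124 CPM in WT against 459, 958 and 199 in ime4, a difference of 2.54 (adjusted p 1.37e-06) with a wide spread in ime4, and of 1.68 without replicate 2 of every strain. NRG1 too was higher in ime4 at that time, by 1.21 (adjusted p 8.06e-05), so the 2 genes did not mirror each other there. ZPS1, a cell surface protein gene induced at alkaline pH, held 539, 529 and 466 CPM in WT at 6 h and 78.1 ± 6.15 at 9 h. It was lower in ime4 at 6 h by -1.9 (adjusted p 2.63e-09, and -0.74 under total counts) and higher at 9 h by 1.62 (adjusted p 8.8e-08).

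**Figure D5:**
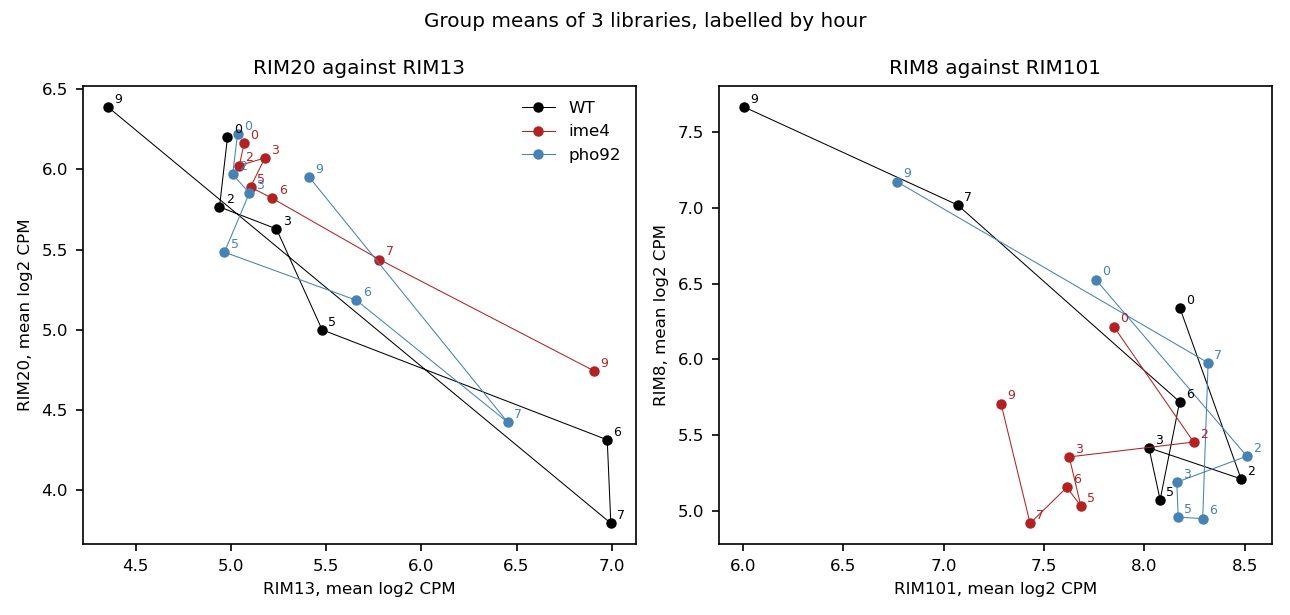
Mean log2 CPM of RIM20 against RIM13 (left) and of RIM8 against RIM101 (right), with 1 point per group of 3 libraries, coloured by strain, labelled by hour and joined in order of time. High RIM13 goes with low RIM20 (Pearson r -0.92 over 21 groups) and, less closely, high RIM101 with low RIM8 (-0.69).

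Across the 21 group means of log2 CPM, RIM13 and RIM20 had a Pearson r of -0.92, RIM9 and RIM13 of -0.88, RIM9 and RIM20 of 0.87, and RIM8 and RIM101 of -0.69. These are descriptions, since the points share libraries, scaling and a time course. Against genes outside the pathway, RIM13 had 0.91 with SMP1 and 0.71 with NDT80, RIM9 had -0.90 with YCK2 and -0.84 with NDT80, and RIM20 had 0.79 with NRG1. The 3 tested genes most like each member over the same 21 groups were CTK3, KEL1 and UBA4 for RIM21 (r 0.83 to 0.84), RPC11, ECM7 and UTP15 for DFG16 (0.84 to 0.91), RTR2, BER1 and FLC2 for RIM9 (0.96 to 0.97), and IPT1, ATG5 and SAS5 for RIM8 (0.93 to 0.95). They were YPT53, STE23 and CWC23 for RIM20 (0.97 each), NTG2, KIN28 and YPP1 for RIM13 (0.96 to 0.98), and PGC1, YHM2 and PXP2 for RIM101 (0.89 to 0.9). No member was among the 3 most like another.

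The authors' deposited table of comparisons, made with DESeq2, gave an adjusted p under 0.05 to 25 of the 49 pairs of gene and time in ime4 against WT and 21 of 49 in pho92 against WT. Of these, 25 and 20 were also called in the fits used here. The pair called only by the authors was DFG16 in pho92 at 7 h.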

How the data were processed

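Poly(A) RNA of 63 libraries was sequenced as 50-nt single reads by a stranded TruSeq protocol that started from 500 ng (per the labels' protocols). The submitters' processing notes name DESeq2 1.22.1, R 3.5.1, HTSeq 0.6.1, TopHat2 2.0.14, Bowtie and bcl2fastq 2.17.1.14. The sources used here do not give the strand setting, the treatment of reads with several matches or the genome build. The deposited table held raw counts for 6088 genes, and 0 of its sample columns were left unused for want of a match to the labels. The authors also deposited a normalized signal, which was not used, and log2 fold changes with p-values of each mutant against WT from DESeq2, of which only the calls for the 7 genes were counted.

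Gene names came from R64 for 5575 identifiers and from the table for 513, and start and end equalled R64 for 99.75% of the matched genes. Genes passing filterByExpr by group (minimum count 10) were fitted in R 4.3.3 with edgeR 4.0.16, on limma 3.58.1, in 1 quasi-likelihood model with 21 group means, TMM factors of 0.387 to 1.53, a biological coefficient of variation of 0.184 and 42 residual degrees of freedom. p-values were adjusted over all 5822 genes after Benjamini and Hochberg, and a gene was called under 0.05. CPM are given with the SD of 3 libraries and log2 differences with the SE of the fit. Totals of 12826747 counts or more mean that counting error is small beside the spread of replicates, except for RIM9. The fit was tested on simulated counts in which a small set of genes was changed, as many up as down. Most genes were unchanged there, so that test cannot bear on the choice of scaling. The 7 genes are named throughout, with NRG1, SMP1, ENA1 and up to 4 genes of each pathway list with the smallest adjusted p, and the 3 named genes most correlated with each member. CAF20, WSC4, YMR155W and NUP53 were chosen after their values were seen. So were ZPS1, YCK2, SNF8, DID2 and STP22 in contrasts where they were not among those 4. Members and lists were chosen with earlier results of these data known. Alternatives were total counts, RLE factors, no filter, DESeq2 1.42.0, fits of the compared libraries only, replicate blocks and leaving out replicates.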

Additional observations from a re-analysis of the deposited data

Results flagged for a closer look

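The difference between mutant and WT changed over the 7 times, by an F test of the interaction over all 5822 genes (edgeR, Benjamini-Hochberg), for all 7 pathway genes in ime4. The adjusted p was 8.02e-18 for RIM20, 1.71e-17 for RIM13, 4.57e-12 for RIM9, 1.65e-11 for RIM8, 2.02e-10 for RIM101, 1.22e-06 for RIM21 and 7.82e-05 for DFG16. In pho92 the same test called 6 genes, with an adjusted p of 1.25e-08 for RIM13, 5.59e-08 for RIM101, 2.61e-06 for RIM21, 1.06e-05 for RIM20, 3.26e-05 for RIM9 and 0.00115 for RIM8. Over all genes this test called 96.3% in ime4 and 90.6% in pho92, so these calls do not set the pathway apart. RIM9, RIM20 and RIM13 were called with opposite signs at 7 and 9 h in both mutants under TMM. Under total counts RIM13 turned at 7 h in both mutants and kept its direction at 9 h, so its opposite signs were lost. In pho92 the calls of RIM9 and RIM20 at 9 h were kept in 11 and 10 of 15 alternatives, and that of RIM13 at 7 h in 10 of 15.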

How the results depend on the processing

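Of 287 single differences of the 7 genes, 140 were called, 63 of them under every alternative and 86 whichever replicate was left out. DESeq2 and RLE factors each kept 132, fits of the compared libraries only 110, total counts 99, and no filter kept all 140. The count of calls for ime4 against pho92, 26, was 15 under total counts, 17 with the compared libraries only and 14 to 24 without single replicates. Without single replicates the calls for pho92 against WT, 20, ranged from 12 to 19 and those for the pho92 steps, 21, from 12 to 20. For ime4 over 3 to 9 h total counts gave 7 in place of 4. Every reversal came under total counts, whose shift of the median is by construction that of the library scaling. In WT these were RIM8 (-0.20) and RIM101 (-0.75) at 6 h against 5 h, and RIM13 (-0.63), RIM21 (-0.03) and DFG16 (-0.51) at 7 h against 6 h. In ime4 they were RIM8 (-0.17) and RIM21 (-0.80) at 9 h against 7 h, and in pho92 RIM101 at 3 h against 2 h (0.01) and at 7 h against 6 h (-0.62). For ime4 against WT they were RIM8 (0.57) and RIM101 (0.58) at 6 h, and RIM13 (0.57), SNF8 (0.69), DID2 (0.07) and STP22 (0.07) at 7 h. For pho92 against WT they were RIM8 (0.05) at 6 h, RIM13 (0.26), RIM21 (0.31), DFG16 (0.69), SNF8 (0.02) and DID2 (0.60) at 7 h, and DFG16 (-0.45) at 9 h. For ime4 against pho92 at 7 h they were RIM101 (0.04) and RIM13 (0.31). Over 3 to 9 h they were RIM13 (0.46) and DFG16 (0.60) in ime4, and RIM13 (0.01), RIM21 (0.31) and DFG16 (0.24) in pho92. With the replicate number as a block all 140 calls were kept, and with a block by strain all 57 called steps. Across strains, same-numbered libraries deviated together (r over 0.1) in 17 of 63 pairs. They did so for WT and pho92 at 5 h (r 0.694, 0.163 and 0.447) and 6 h (0.583, 0.229 and 0.55). At 7 h the same strains gave -0.137, 0.104 and -0.227. Within a strain, same-numbered libraries deviated together in 35 of 54 pairs of consecutive times, and 35 of 54 libraries correlated best with their own number. These are hints from the data and not from the design, and were not taken as pairing since other pairs did not. Of the 7 genes RIM9 had the lowest counts (7 to 21 in WT at 7 h), which limits its precision.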

Other observations

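The nearest neighbours of the 7 genes were read for their levels because the strand setting of the counting is not given in the sources used here. Those given here were named after their values were seen, and others varied too. CAF20, divergent from RIM20 at a distance of 263 bases and encoding a regulator of translation initiation, went in WT from 88.4 CPM at 0 h to 9.48 at 6 h and 351 ± 18.6 at 9 h. The mutant means at 9 h were 12.6 CPM for ime4 and 180 CPM for pho92. WSC4, which encodes a membrane protein of the cell wall stress sensor family and lies 530 bases upstream of RIM101 on the same strand, went in WT from 11.6 CPM at 5 h to 422 ± 318 at 6 h and 1550 ± 154 at 7 h, when RIM101 fell. In ime4 WSC4 reached 1100 CPM at 9 h and in pho92 909 ± 573 at 7 h. Its part in the RIM101 course was not tested. YMR155W, 368 bases from RIM13, went in WT from 55.8 CPM at 5 h to 134 at 6 h. It stood at 158 at 7 h and 38.1 at 9 h, a course like that of RIM13. In ime4 at 6 h YMR155W stood at 173 CPM and RIM13 at 37.2. NUP53, 136 bases from RIM13, went in WT from 43.2 CPM at 5 h to 155 at 7 h and 57.9 at 9 h. The part of these neighbours in the RIM13 counts was not tested.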
